A study of Arabidopsis thaliana with 8 samples.

Results

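Seedlings of the Arabidopsis thaliana mutant fha2 were set directly against seedlings of the double mutant rlt1/2, gene by gene, with no wild-type library in the contrast. It uses 4 of the 8 RNA-seq libraries of the study, 2 of fha2 (genotype fha2-/-) and 2 of rlt1/2 (genotype rlt1-/- rlt2-/-), chosen by their labels. The other 4 libraries, 2 of the mutant labelled chr11/17 and 2 of the wild type, entered the fit only to estimate the spread, and wild-type levels are given for some genes as a description. All plants were of the Col background and carried no other stated allele or treatment. They were grown on MS plates at 22 °C with 16 h of light and 8 h of dark, and total RNA was taken from 0.05 g of seedlings aged 11 days. Nothing in the labels tells if replicate libraries were from plants grown apart, so p-values here reflect the spread of the libraries alone, and that spread may be technical. The alleles behind the genotypes are not given in the sources used here.

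ISWI complexes are chromatin remodellers that use ATP to slide and space nucleosomes. In Arabidopsis their ATPases are CHR11 and CHR17, and each complex holds a partner subunit with a DDT domain, such as RLT1 or RLT2. FHA2 carries a forkhead-associated domain, a fold that binds phosphorylated threonine, and the title of the series presents it as a plant-specific subunit of ISWI. Loss of the ATPases or of both RLT genes is known to speed flowering in Arabidopsis. A comparison of the 2 mutants asks where seedling transcripts differ between loss of FHA2 and loss of the RLT pair.

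The fha2 libraries held 22012119 and 21935290 expected counts, and the rlt1/2 libraries 21638529 and 21787308. Replicates of both genotypes differed by more than counting noise, with a chi-square per degree of freedom of 4.31 in fha2 and 5.51 in rlt1/2. It was larger in the other groups that enter the spread, at 7.65 in Col and 12.4 in chr11/17. Levels are counts scaled to library size (CPM) with TMM factors. Changes are log2 fold changes of fha2 over rlt1/2 with their standard error (SE), from the edgeR quasi-likelihood test, and a gene was called at a Benjamini-Hochberg adjusted p under 0.05 over all 20866 genes tested. The green leaf markers LHCB3, RBCS1A and RCA summed to 38067 and 36267 CPM in fha2, against 34872 and 33587 CPM in rlt1/2. The root markers PIN2, SCR, SHR, PYK10 and CASP1 summed to 789 and 787 CPM in fha2, against 1407 and 1318 CPM in rlt1/2. Without PYK10 that sum was 70.8 and 67.9 CPM in fha2, against 77.3 and 75.8 CPM in rlt1/2. Both leaf and root markers were thus present in all 4 libraries, as the label of whole seedlings says.

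The mutated genes were read first. FHA2 (AT3G07220, on chromosome 3) had 3.04 and 1.01 CPM in fha2, against 22.0 and 20.06 CPM in rlt1/2. These stood for 69 and 23 counts in fha2. FHA2 was lower in fha2, with a log2 fold change of -3.37 ± 0.26 (edgeR test, adjusted p = 2.42e-06). RLT2 (AT5G44180, on chromosome 5) had 31.8 and 34.4 CPM in fha2, against 2.19 and 2.21 CPM in rlt1/2, and was higher in fha2, with a log2 fold change of 3.91 ± 0.14 (adjusted p = 5.13e-08). RLT1 (AT1G28420, on chromosome 1) had 29.1 and 31.5 CPM in fha2, against 15.9 and 16.8 CPM in rlt1/2. RLT1 was higher in fha2, with a log2 fold change of 0.89 ± 0.17 (adjusted p = 0.00130). The difference between the mutants was thus far larger for RLT2 than for RLT1. RLT1 overlaps AT1G28410, and counting both loci together gave a log2 fold change of 0.34. In the wild type, FHA2 had 23.5 and 24.4 CPM in Col, RLT1 25.4 and 35.7 CPM in Col and RLT2 28.2 and 34.1 CPM in Col. FHA2 in fha2 and RLT2 in rlt1/2 lay far below the Col values. RLT1 in rlt1/2 lay below Col too, but much of its count remained, so for RLT1 the transcript level alone does not show the loss that the label states. Counts over a whole gene do not tell if a transcript was interrupted.

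Of the 11 genes listed for ISWI complexes and their partners, 3 were called higher in fha2 and 3 lower, with a median log2 fold change of -0.15. The mutated genes themselves account for RLT1, RLT2 and FHA2 among those 6. The other called members were CHR17, PTM and MSI1. The background was 41.1% of tested genes called in either direction, with 20.2% higher and 20.9% lower. CHR11, one of the ATPases, had 46.1 and 43.5 CPM in fha2, against 49.0 and 50.7 CPM in rlt1/2, a log2 fold change of -0.15 ± 0.084 (adjusted p = 0.161). CHR17, the other ATPase, had 20.8 and 20.8 CPM in fha2, against 30.6 and 26.4 CPM in rlt1/2, and was called lower in fha2, with a log2 fold change of -0.46 ± 0.12 (adjusted p = 0.0110). CHR17 overlaps AT5G18610, and counting both together gave -0.08. The CHR17 call was lost without fha2 replicate 1, fha2 replicate 2 or rlt1/2 replicate 1 (largest adjusted p = 0.116). PTM, a DDT-domain protein with a PHD finger, had 36.9 and 33.3 CPM in fha2, against 27.5 and 28.9 CPM in rlt1/2, and was called higher in fha2, with a log2 fold change of 0.32 ± 0.096 (adjusted p = 0.0192), a call lost without fha2 replicate 1, without either rlt1/2 library, in DESeq2 and with the length offset. MSI1, a WD40 histone-binding protein, had 27.3 and 26.8 CPM in fha2, against 33.5 and 31.4 CPM in rlt1/2. It was called lower in fha2, with a log2 fold change of -0.26 ± 0.095 (edgeR test, adjusted p = 0.0409). MSI1 lost the call when any of the 4 libraries was left out, and with total counts, no filter, DESeq2 or the replicate block. Its relatives MSI2 and MSI3 had log2 fold changes of -0.28 ± 0.11 and -0.17 ± 0.12 and were not called (adjusted p = 0.0588 and 0.285). AT4G12750, a further DDT-domain gene, had 3.05 and 3.69 CPM in fha2, against 3.33 and 2.77 CPM in rlt1/2, a log2 fold change of 0.14 ± 0.23 (adjusted p = 0.657). AT3G43240, a gene with an ARID domain, had 17.1 and 16.6 CPM in fha2, against 17.7 and 18.7 CPM in rlt1/2, a log2 fold change of -0.11 ± 0.11 (adjusted p = 0.433). Outside the mutated genes, CHR17 thus had the largest difference of the list. With a length offset, described with the trend it removes, 2 of the 11 were higher and 5 lower.

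Across the whole table, 4221 genes were higher in fha2 than in rlt1/2 (20.2% of those tested) and 4361 were lower (20.9%). Differences of at least 2-fold were fewer, with 739 genes higher (3.54%) and 1189 lower (5.70%). The median log2 fold change over all genes tested was 0.00. Leaving out 1 library changed the counts by over 1.5 times in places. The number higher was 2677 without fha2 replicate 1, 2807 without fha2 replicate 2 and 2352 without rlt1/2 replicate 1. The number lower was 2846 without fha2 replicate 1 and 2656 without rlt1/2 replicate 1.

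**Figure D1:**
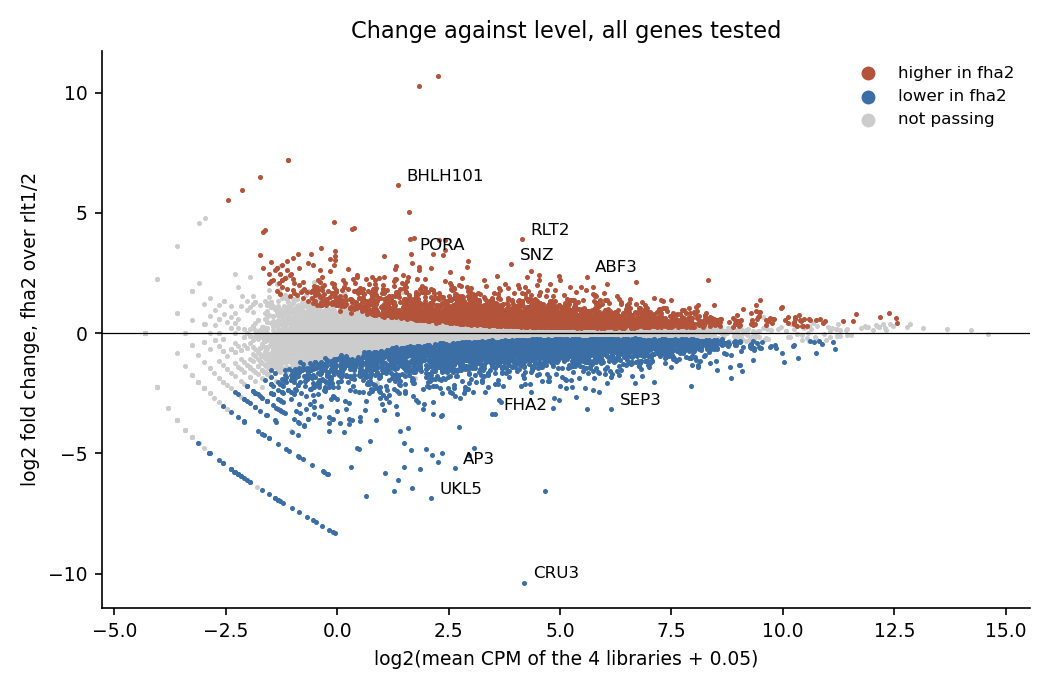
Each point is 1 of the 20866 genes tested, with its mean level over the 4 libraries of fha2 and rlt1/2 on the horizontal axis, as log2(CPM + 0.05), and its log2 fold change of fha2 over rlt1/2 on the vertical axis; colours mark the 4221 genes called higher in fha2 and the 4361 called lower. Calls lie on both sides of 0 at all but the lowest levels, and the curved lines at the lower left are genes with 0 or 1 count in fha2, whose fitted value depends on the prior count and is no measure of size.

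Calls moved with transcript length, read here in 5 groups of nearly equal size. Among the shortest genes, with exon lengths of 87 to 1108 bases, 8.47% were higher in fha2 and 37.6% lower, with a median log2 fold change of -0.31. Among the longest, at 2479 to 16593 bases, 33.2% were higher and 9.61% lower, with a median of 0.19. The shares in the groups between ran in order, so long transcripts were more often higher in fha2 and short ones more often lower. Median exon length was 2045 bases for the genes called higher, 1322 bases for those called lower and 1706 bases for all tested genes. Relative to the mean of the 4 libraries, the shortest genes had a median log2 deviation of -0.13 and -0.13 in the fha2 libraries, against 0.17 and 0.09 in the rlt1/2 libraries. Both libraries of each genotype thus shared the trend. With a smooth length trend removed as an offset, a setting added after the trend was seen, 3738 genes were higher (17.9%) and 3928 lower (18.8%). Plants and library preparation cannot be told apart as the source of the trend, since each genotype has its own libraries. For many groups the count under the offset is therefore given where that count differs by over 1.5 times.

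**Figure D2:**
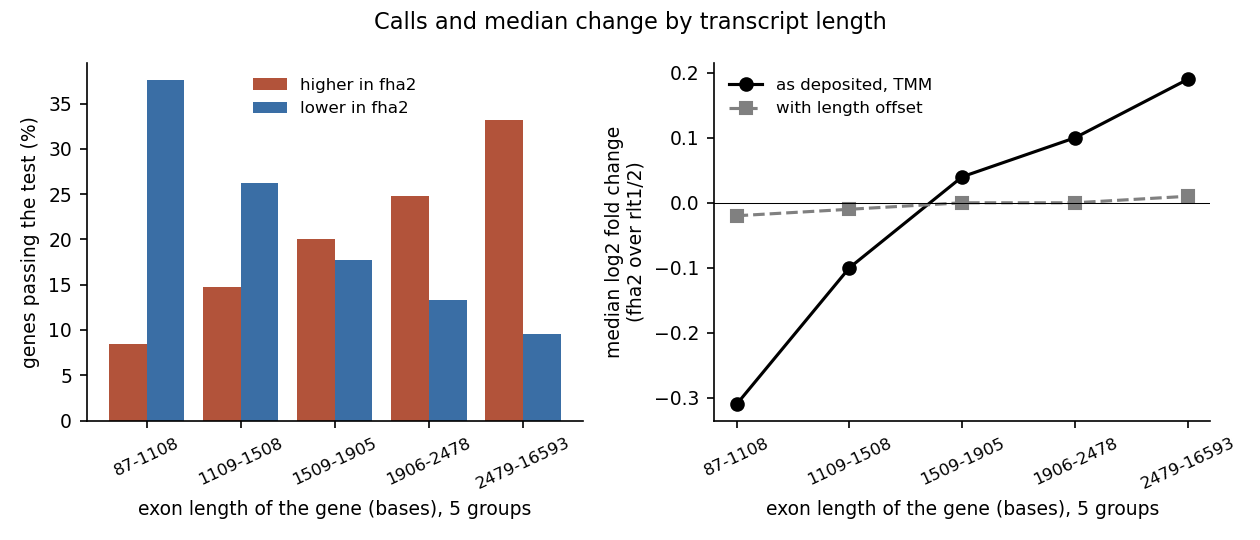
Tested genes are split into 5 groups by exon length in bases. The left panel gives the percentage called higher and lower in fha2. The right panel gives the median log2 fold change without the length offset (labelled as deposited, TMM) and with it. The share higher climbs to 33.2% in the longest genes while the share lower is largest, at 37.6%, in the shortest, and the offset brings the medians to between -0.02 and 0.01.

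Gene lists for 21 pathways and tissues, holding 330 genes, were then read for how many tested members were called each way. The lists on iron deficiency, chlorophyll synthesis, cold and abscisic acid, auxin response, flowering repressors and the circadian clock had mostly higher members in fha2. Those on seed maturation, floral organ identity and heat shock had mostly lower ones. No test of a list as a whole was run, so each count is to be read beside the background of 20.2% higher and 20.9% lower.

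**Figure D3:**
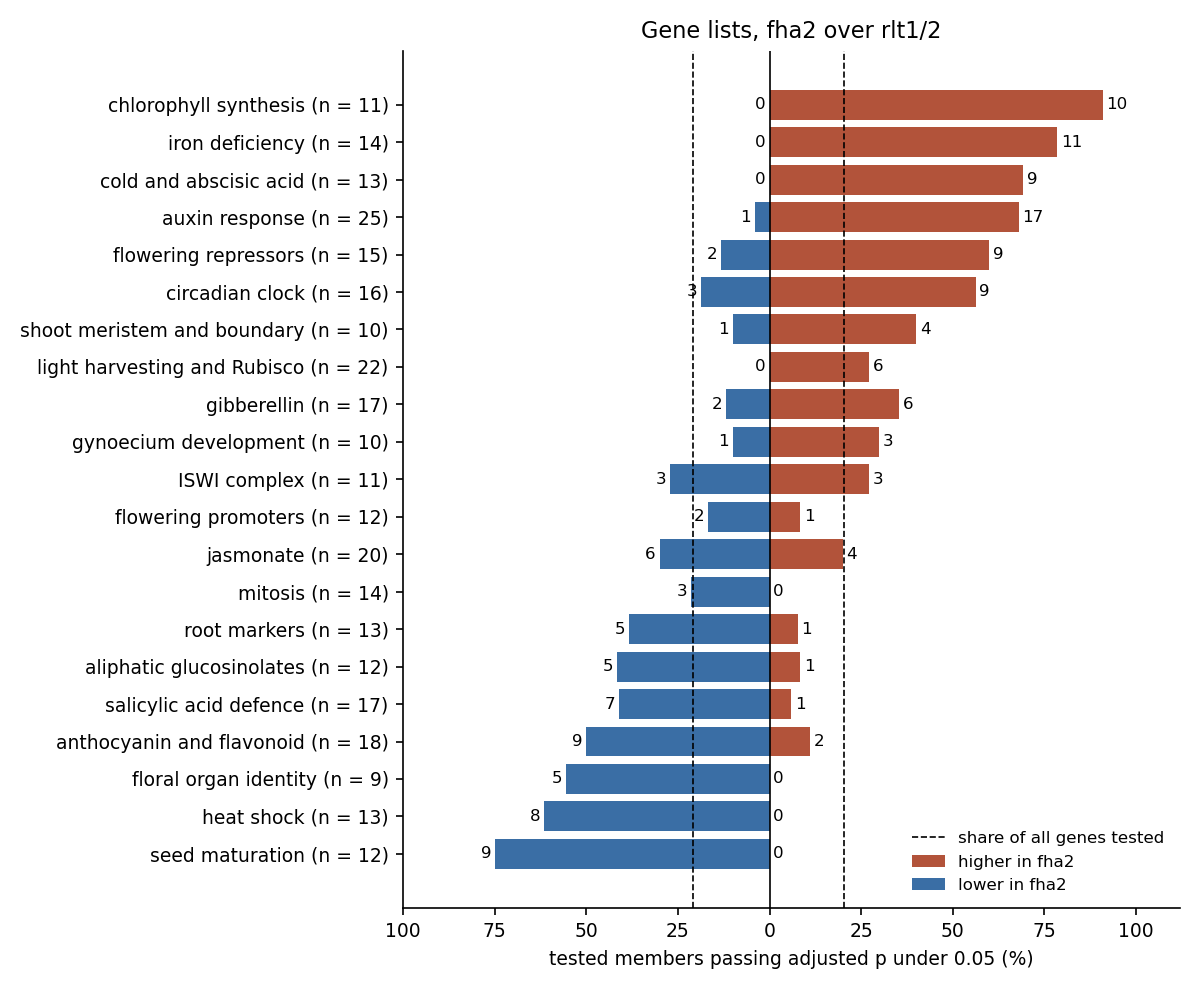
For each list the bars give the percentage of tested members called higher in fha2 (to the right) and lower in fha2 (to the left). Chlorophyll synthesis reaches furthest to the right with 10 of 11 members, and seed maturation furthest to the left with 9 of 12.

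Several transcripts of seed storage proteins were present in rlt1/2 and nearly absent in fha2. In the seed maturation list 12 of 17 members were tested, and 9 of them were lower in fha2 with none higher, at a median log2 fold change of -4.85. Several of these passed the filter on low counts through rlt1/2, where they are high, and over all 17 members with no filter the median was -2.96, also with 9 lower. CRU3, a cruciferin storage protein, had 0 and 0.0439 CPM in fha2, against 39.3 and 34.1 CPM in rlt1/2, which is 1 count in fha2 against 1684 in rlt1/2, a ratio of 1667 in favour of rlt1/2 with an exact 95% interval of 299 to 65886 (counting error only). CRA1, another cruciferin, had 0.662 and 0.395 CPM in fha2, against 54.4 and 46.1 CPM in rlt1/2, and was lower in fha2, with a log2 fold change of -6.56 ± 0.47 (edgeR test, adjusted p = 1.84e-06). OLEO1, which coats seed oil bodies, had 0.132 and 0 CPM in fha2, against 7.40 and 4.98 CPM in rlt1/2. The 2S albumin genes SESA1 and SESA3 were likewise low in fha2. SESA1 had 0.221 and 0 CPM in fha2, against 6.13 and 4.68 CPM in rlt1/2, and SESA3 had 0 and 0.0878 CPM in fha2, against 2.14 and 2.51 CPM in rlt1/2. SESA1 to SESA4 are related copies in tandem, so reads may be split between them. The late embryogenesis gene EM6 had 0.0883 and 0.132 CPM in fha2, against 1.05 and 0.737 CPM in rlt1/2, a log2 fold change of -2.96 ± 0.70 (adjusted p = 0.00447). The remaining tested members, OLEO4, EM1 and ABI3, were not called. The cruciferin CRU2, the 2S albumin SESA4 and the regulators LEC1, LEC2 and FUS3 were the 5 members removed by the filter on low counts. None had over 19 counts in any of the 4 libraries, so CRU2 and SESA4 were low in rlt1/2 too. In the wild type CRU3 was at 0 and 0 CPM in Col and CRA1 at 0.164 and 0.693 CPM in Col, so the transcripts seen in rlt1/2 were also almost absent from Col. Whether rlt1/2 held more cells with seed transcripts or more such RNA per cell cannot be told apart in bulk seedlings, here and for every tissue list that follows.

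Floral organ identity genes are MADS-box factors that specify sepals, petals, stamens and carpels. Of 12, 9 were tested; 5 were lower in fha2 and none was higher, with a median log2 fold change of -2.30, or -1.95 over all 12 with no filter. AP3, needed for petals and stamens, had 0.132 and 0.351 CPM in fha2, against 11.1 and 13.2 CPM in rlt1/2, lower in fha2, with a log2 fold change of -5.61 ± 0.25 (edgeR test, adjusted p = 1.17e-07). Its partner PI had 0.309 and 0.263 CPM in fha2, against 0.350 and 0.303 CPM in rlt1/2, and was removed by the filter, so this marker of the same organs was under 1 CPM in all 4 libraries. SEP3 had 9.05 and 19.2 CPM in fha2, against 126 and 129 CPM in rlt1/2, lower in fha2, with a log2 fold change of -3.17 ± 0.27 (adjusted p = 5.28e-06). SEP1 had 0.618 and 0.527 CPM in fha2, against 16.2 and 15.8 CPM in rlt1/2, lower in fha2, with a log2 fold change of -4.79 ± 0.19 (adjusted p = 6.42e-08), and overlaps AT5G15790; both loci together gave -1.46. SHP1 and SHP2, which act in valve margins and ovules, were also called lower. SHP2 had 0.221 and 0.219 CPM in fha2, against 2.37 and 2.73 CPM in rlt1/2, and SHP1 had 0.253 and 0.0878 CPM in fha2, against 0.867 and 0.607 CPM in rlt1/2, a call lost without fha2 replicate 2 or without rlt1/2 replicate 1. AP1, a gene of the floral meristem and sepals, had 0.132 and 0.0878 CPM in fha2, against 0.350 and 0.477 CPM in rlt1/2, a log2 fold change of -1.86 ± 0.93 (adjusted p = 0.119), and was not called. AG, the carpel and stamen gene, had 0.309 and 0.395 CPM in fha2, against 0.131 and 0.693 CPM in rlt1/2. The floral signal was thus made of AP3, the SEP genes SEP1 and SEP3, and the SHP genes. AP1, AG and PI were at under 1 CPM in all 4 libraries. SEP2, SEP4 and STK were also tested and not called, and the highest log2 fold change in the list was 0.57.

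Several regulators of flowering time differed strongly. FT, the mobile signal that triggers flowering, had 0.132 and 0.176 CPM in fha2, against 2.15 and 2.17 CPM in rlt1/2, lower in fha2, with a log2 fold change of -3.76 ± 0.49 (edgeR test, adjusted p = 1.10e-04). Its level was 0.383 and 0.107 CPM in Col, and both fha2 libraries lay between those values. FLC, the main repressor of FT, had 0.662 and 0.658 CPM in fha2, against 0.0876 and 0.0867 CPM in rlt1/2, higher in fha2, with a log2 fold change of 2.84 ± 0.61 (adjusted p = 0.00251). FLC was at 3.62 and 4.48 CPM in Col, so fha2 lay above rlt1/2 and below Col. SOC1, a promoter of flowering that acts with FT, ran the other way, with 32.7 and 24.97 CPM in fha2, against 9.77 and 11.8 CPM in rlt1/2, higher in fha2, with a log2 fold change of 1.42 ± 0.19 (adjusted p = 1.43e-04). FUL, a MADS-box promoter, had 1.02 and 0.965 CPM in fha2, against 1.45 and 1.21 CPM in rlt1/2, and was not called (log2 fold change -0.42 ± 0.35, adjusted p = 0.357). GI, a clock-linked promoter, had 26.3 and 26.3 CPM in fha2, against 35.3 and 34.3 CPM in rlt1/2, lower in fha2, with a log2 fold change of -0.41 ± 0.10 (adjusted p = 0.00806), a call lost without fha2 replicate 1, fha2 replicate 2 or rlt1/2 replicate 1. Among the 12 tested promoters of flowering, FT and GI were lower, SOC1 was higher and the other 9 were not called.

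Repressors of flowering were more often higher in fha2. Of 15, 9 were higher and 2 lower, with a median log2 fold change of 0.48. SNZ, an AP2-type repressor, had 28.8 and 23.9 CPM in fha2, against 3.15 and 4.07 CPM in rlt1/2, higher in fha2, with a log2 fold change of 2.86 ± 0.16 (adjusted p = 3.62e-07). Its wild-type level was 21.3 and 21.2 CPM in Col. SVP, which acts with FLC, had 79.7 and 81.6 CPM in fha2, against 51.1 and 52.6 CPM in rlt1/2, a log2 fold change of 0.64 ± 0.082 (adjusted p = 1.09e-04). TEM1, TEM2, TOE1, TOE3 and MAF1 were higher by 0.45 to 0.55 on the log2 scale. Of these calls, TEM1 was lost without fha2 replicate 2, and MAF1 and TOE3 without fha2 replicate 1 or without either rlt1/2 library. The FLC relatives MAF3 and MAF5, which lie in a cluster on chromosome 5, differed in opposite directions. MAF3 had 9.18 and 9.29 CPM in fha2, against 2.32 and 2.08 CPM in rlt1/2, higher in fha2, with a log2 fold change of 2.07 ± 0.19 (adjusted p = 9.49e-06). MAF5 had 0.839 and 0.878 CPM in fha2, against 9.77 and 8.58 CPM in rlt1/2, lower in fha2, with a log2 fold change of -3.41 ± 0.29 (adjusted p = 5.47e-06). TOE2 was the other member lower in fha2, with 50.4 and 45.5 CPM in fha2, against 66.9 and 62.8 CPM in rlt1/2. MAF2 was not called, with 42.5 and 39.1 CPM in fha2, against 42.2 and 39.4 CPM in rlt1/2.

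**Figure D4:**
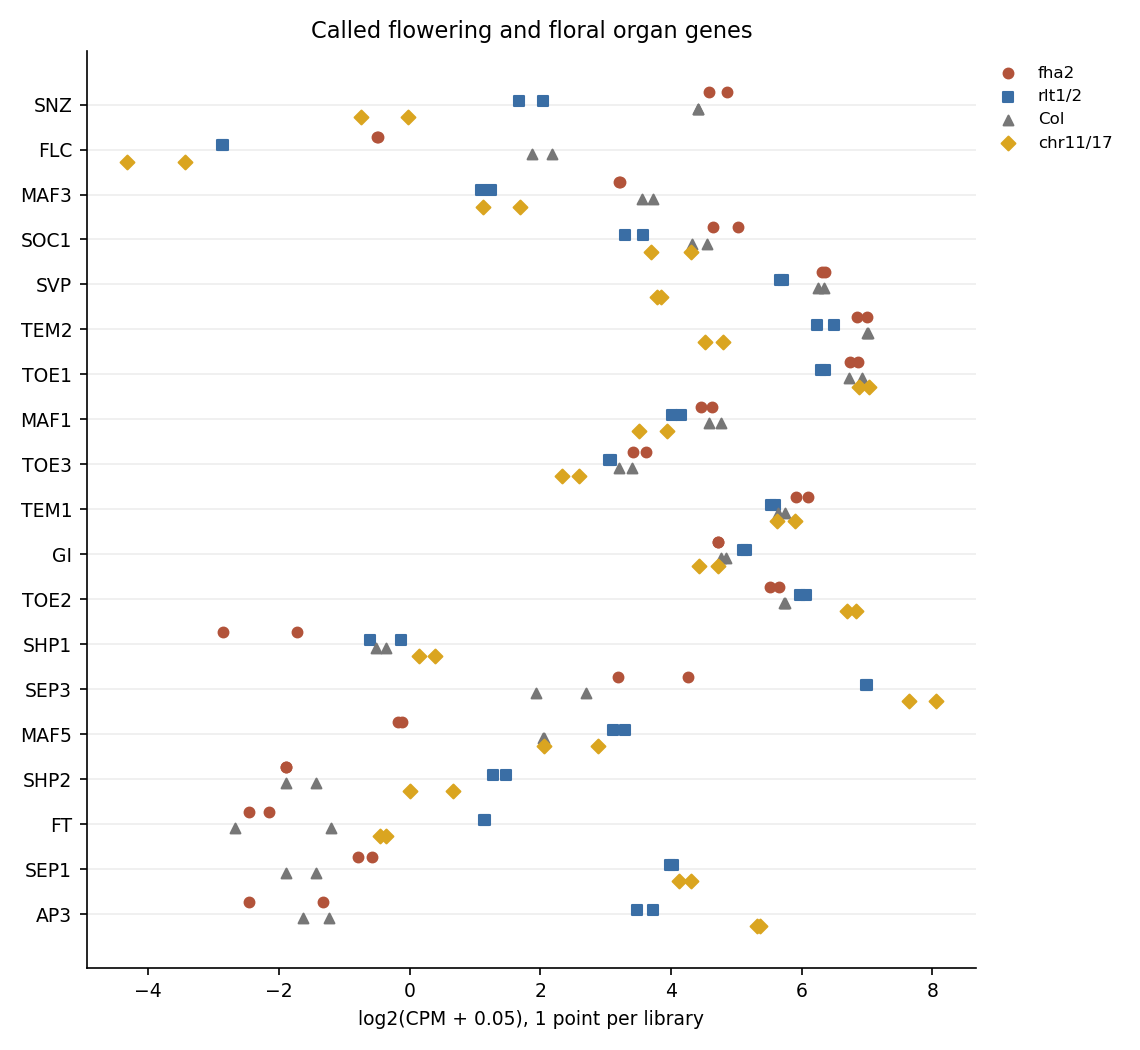
Levels of flowering regulators and floral organ genes, as log2(CPM + 0.05) with 1 point per library; genes called in either direction are shown, and the points of Col and of chr11/17 are drawn for their level alone. The points of fha2 and rlt1/2 lie far apart for FT, FLC, SNZ, MAF3, MAF5, AP3, SEP1 and SEP3, and closer together for GI and TOE2.

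Genes that answer iron shortage were higher in fha2. Of 14 tested, 11 were higher and none lower, with a median log2 fold change of 1.23. The count was 7 without fha2 replicate 1 and 6 without rlt1/2 replicate 1. The subgroup Ib bHLH factors, which activate iron uptake under iron shortage, had the largest differences of the list and supplied 4 of the 10 highest named genes. BHLH101 had 5.47 and 4.51 CPM in fha2, against 0.0438 and 0.0867 CPM in rlt1/2, or 227 counts in fha2 against 3 in rlt1/2, a ratio of 76.4 with an exact 95% interval of 25.8 to 373. Its counts overlap those of AT5G04140, and both loci together gave 0.77 on the log2 scale. BHLH38 had 6.004 and 5.70 CPM in fha2, against 0.136 and 0.221 CPM in rlt1/2, higher in fha2, with a log2 fold change of 5.02 ± 0.30 (edgeR test, adjusted p = 4.65e-07), and overlaps AT3G56960; both loci gave 1.66. BHLH39 had 5.12 and 3.47 CPM in fha2, against 0.307 and 0.910 CPM in rlt1/2, a log2 fold change of 2.80 ± 0.39 (adjusted p = 1.65e-04). BHLH100 had 6.93 and 5.26 CPM in fha2, against 0.175 and 0.607 CPM in rlt1/2, a log2 fold change of 3.94 ± 0.37 (adjusted p = 1.07e-05). AT2G30766 had 59.2 and 47.0 CPM in fha2, against 7.77 and 12.6 CPM in rlt1/2, a log2 fold change of 2.38 ± 0.18 (adjusted p = 2.23e-06). BTS, an E3 ligase that restrains the iron response, was higher as well, with 54.6 and 56.6 CPM in fha2, against 23.9 and 26.0 CPM in rlt1/2. The uptake genes were less clear. FRO2, the root ferric reductase, had 10.7 and 8.38 CPM in fha2, against 1.71 and 6.02 CPM in rlt1/2, and was called higher in fha2, with a log2 fold change of 1.30 ± 0.38 (adjusted p = 0.0166), a call lost without fha2 replicate 1 or without rlt1/2 replicate 1. IRT1, the iron transporter, had 43.1 and 37.3 CPM in fha2, against 15.9 and 37.6 CPM in rlt1/2, so rlt1/2 replicate 2 overlapped the fha2 libraries, and it was not called (adjusted p = 0.242). FRU, the bHLH factor that directs both, had 7.02 and 5.66 CPM in fha2, against 6.26 and 6.11 CPM in rlt1/2 (adjusted p = 0.908). The bHLH factors were well above the rlt1/2 libraries in the wild type too, with BHLH101 at 4.13 and 6.16 CPM in Col and BHLH38 at 9.91 and 9.37 CPM in Col.

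Chlorophyll synthesis genes were higher in fha2 nearly throughout. All but CHLD of the 11 members were called higher and none lower, at a median of 0.50. With overlapping genes removed only 3 of the 11 were left, all 3 higher. PORA, a light-dependent protochlorophyllide reductase, had 4.99 and 6.27 CPM in fha2, against 0.613 and 0.520 CPM in rlt1/2, 9.85-fold higher in fha2 (edgeR test, adjusted p = 5.47e-06). PORB had 388 and 409 CPM in fha2, against 219 and 228 CPM in rlt1/2, a log2 fold change of 0.83 ± 0.097 (adjusted p = 5.31e-05). GUN4, which stimulates magnesium chelatase, had 339 and 318 CPM in fha2, against 178 and 203 CPM in rlt1/2, a log2 fold change of 0.78 ± 0.12 (adjusted p = 3.33e-04). Apart from PORA the called members were higher by 0.26 to 0.83 on the log2 scale. The fha2 levels lay below the wild type for PORB, at 529 and 531 CPM in Col, and for GUN4, at 473 and 380.2 CPM in Col. Among all tested genes 20.2% were higher and 20.9% lower. Of the 22 light-harvesting and Rubisco genes, 6 were higher, not far above that share, and none lower, at a median of 0.32. This count varied with the setting: it was 3 without fha2 replicate 1 or without either rlt1/2 library, 11 with the length offset and 16 in a fit of the 4 libraries alone. CAB3 had 7157 and 6536 CPM in fha2, against 3697 and 3901 CPM in rlt1/2, a log2 fold change of 0.85 ± 0.16 (adjusted p = 0.00108), and is nearly identical to CAB1 and CAB2. RBCS2B had 5929 and 5474 CPM in fha2, against 3462 and 3625 CPM in rlt1/2, a log2 fold change of 0.69 ± 0.12 (adjusted p = 8.78e-04), and is likewise a close copy of its neighbours. RCA, the Rubisco activase, had 7421 and 7064 CPM in fha2, against 4403 and 4974 CPM in rlt1/2, a log2 fold change of 0.63 ± 0.12 (adjusted p = 0.00180). RBCS1A, a Rubisco small-subunit gene, had 25096 and 24039 CPM in fha2, against 25837 and 23976 CPM in rlt1/2, and was not called.

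Auxin-responsive genes were mostly higher in fha2. Of 25, 17 were higher and 1 was lower, at a median of 0.71; the number higher was 11 without fha2 replicate 1 and 11 without rlt1/2 replicate 1. PIN4, an auxin efflux carrier, had 53.1 and 52.6 CPM in fha2, against 19.1 and 21.7 CPM in rlt1/2, higher in fha2, with a log2 fold change of 1.37 ± 0.094 (edgeR test, adjusted p = 1.32e-06). PIN3 was also higher, with 147 and 144 CPM in fha2, against 88.7 and 89.4 CPM in rlt1/2, whereas PIN7 was not called. IAA4, a repressor of auxin response, had 33.9 and 30.5 CPM in fha2, against 15.4 and 14.1 CPM in rlt1/2, a log2 fold change of 1.13 ± 0.13 (adjusted p = 4.00e-05). IAA29 had 9.45 and 9.04 CPM in fha2, against 2.15 and 2.95 CPM in rlt1/2, a log2 fold change of 1.86 ± 0.22 (adjusted p = 6.75e-05), and stood at 19.5 and 27.7 CPM in Col. Of the 11 Aux/IAA genes in the list, 10 were called higher, the exception being IAA2. Among these, IAA17 and IAA5 were called near the threshold (edgeR test, adjusted p = 0.0489 and 0.0398). Over the whole auxin list, 12 members were higher in DESeq2 and 13 with total counts. The SAUR19 to SAUR24 genes, close copies of one another that promote cell expansion, were called higher except for SAUR21, with the calls of SAUR19 and SAUR24 lost in some fits that left out 1 library. GH3.3, which conjugates auxin to amino acids, was the member lower in fha2, with 8.72 and 8.60 CPM in fha2, against 18.22 and 20.3 CPM in rlt1/2, a log2 fold change of -1.15 ± 0.20 (adjusted p = 7.38e-04).

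In the list on cold and abscisic acid, 9 of 13 tested members were higher and none lower, at a median of 1.01. ABF3, a bZIP factor that binds abscisic acid response elements, had 83.8 and 78.6 CPM in fha2, against 15.1 and 16.7 CPM in rlt1/2, higher in fha2, with a log2 fold change of 2.35 ± 0.13 (edgeR test, adjusted p = 3.68e-07). It overlaps AT4G34020, and both loci gave 1.41. KIN1 had 47.4 and 44.2 CPM in fha2, against 13.8 and 12.5 CPM in rlt1/2, a log2 fold change of 1.80 ± 0.13 (adjusted p = 1.84e-06). RD29A, a marker of cold and drought responses, had 53.1 and 47.7 CPM in fha2, against 21.7 and 21.4 CPM in rlt1/2, a log2 fold change of 1.23 ± 0.091 (adjusted p = 2.23e-06). NCED3, which makes the committed step of abscisic acid synthesis, had 6.23 and 6.01 CPM in fha2, against 2.50 and 2.56 CPM in rlt1/2, a log2 fold change of 1.27 ± 0.27 (adjusted p = 0.00279). COR47, COR15A, ERD10 and ABI2 were not called.

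The circadian clock list had 9 of 16 members higher and 3 lower, at a median of 0.44. PRR7, a morning-phase repressor, had 60.8 and 61.6 CPM in fha2, against 30.1 and 33.3 CPM in rlt1/2, a log2 fold change of 0.95 ± 0.094 (edgeR test, adjusted p = 1.72e-05). PRR9 had 12.5 and 11.1 CPM in fha2, against 3.13 and 5.35 CPM in rlt1/2, a log2 fold change of 1.47 ± 0.24 (adjusted p = 5.16e-04). LNK1, a coactivator in the clock, had 55.2 and 53.6 CPM in fha2, against 24.1 and 30.2 CPM in rlt1/2, a log2 fold change of 1.002 ± 0.11 (adjusted p = 4.12e-05); it overlaps AT5G64160 and both loci gave 0.54. CCA1 and LNK2 were higher as well, and LHY was not called. LUX, of the evening complex, had 18.9 and 21.3 CPM in fha2, against 41.4 and 33.8 CPM in rlt1/2, lower in fha2, with a log2 fold change of -0.91 ± 0.12 (adjusted p = 1.48e-04). ELF4 and PRR3 were the other members called lower, both at under 2 CPM in every library, and only 1 member was called lower without fha2 replicate 2 or without rlt1/2 replicate 1.

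Heat shock genes were lower in fha2. Of 13 tested, 8 were lower and none higher, at a median of -0.91. HSP90.1 had 10.7 and 10.5 CPM in fha2, against 46.5 and 38.8 CPM in rlt1/2, lower in fha2, with a log2 fold change of -2.004 ± 0.11 (edgeR test, adjusted p = 3.25e-07). HSFA2, a heat-induced transcription factor, had 0.795 and 0.746 CPM in fha2, against 8.10 and 7.97 CPM in rlt1/2, lower in fha2, with a log2 fold change of -3.37 ± 0.24 (adjusted p = 1.90e-06). HSP70, a chaperone, had 31.0 and 29.5 CPM in fha2, against 75.7 and 67.6 CPM in rlt1/2, lower in fha2, with a log2 fold change of -1.24 ± 0.097 (adjusted p = 2.97e-06). HSP101, HSP18.2, HSP23.6-MITO, ROF1 and DREB2A made up the rest of the called members, and the call of HSP23.6-MITO was lost when any 1 of the 4 libraries was left out. Wild-type levels of all 3 leading genes were nearer to fha2, with HSP90.1 at 7.94 and 8.05 CPM in Col, HSFA2 at 0.164 and 0.320 CPM in Col and HSP70 at 25.9 and 22.6 CPM in Col.

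Flavonoid and anthocyanin genes were lower in fha2 in 9 of 18 tested members and higher in 2, at a median of -0.27. The number lower was 5 without fha2 replicate 1 and 4 without rlt1/2 replicate 2. F3H, an early enzyme of the pathway, had 85.6 and 90.7 CPM in fha2, against 129 and 151 CPM in rlt1/2, lower in fha2, with a log2 fold change of -0.67 ± 0.1 (edgeR test, adjusted p = 2.99e-04). TT7, the flavonoid 3′-hydroxylase, had 20.3 and 23.7 CPM in fha2, against 33.4 and 46.2 CPM in rlt1/2, lower in fha2, with a log2 fold change of -0.86 ± 0.14 (adjusted p = 5.10e-04). CHS, the entry enzyme, had 492 and 484 CPM in fha2, against 686 and 825 CPM in rlt1/2, a log2 fold change of -0.63 ± 0.13 (adjusted p = 0.00229). MYBL2, a repressor of anthocyanin synthesis, ran against them, with 85.1 and 77.4 CPM in fha2, against 27.3 and 29.0 CPM in rlt1/2, higher in fha2, with a log2 fold change of 1.53 ± 0.092 (adjusted p = 5.16e-07). MYB111, an activator of flavonol genes, was the other member called higher (edgeR test, adjusted p = 0.0452). That call was lost when any of the 4 libraries was left out, and with total counts, DESeq2, the replicate block or the length offset.

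The jasmonate and salicylic acid lists both held members called in each direction. In the jasmonate list 4 of 20 members were higher and 6 lower, at a median of -0.21, beside 20.2% higher and 20.9% lower among all tested genes. JAZ1, a repressor of jasmonate responses, had 14.0 and 14.2 CPM in fha2, against 31.8 and 32.8 CPM in rlt1/2, lower in fha2, with a log2 fold change of -1.20 ± 0.10 (edgeR test, adjusted p = 6.79e-06). JAZ7 had 1.68 and 2.46 CPM in fha2, against 8.80 and 7.11 CPM in rlt1/2, lower in fha2, with a log2 fold change of -1.94 ± 0.23 (adjusted p = 5.94e-05). AOC3, a synthesis enzyme, had 7.43 and 7.50 CPM in fha2, against 15.0 and 15.6 CPM in rlt1/2, lower in fha2, with a log2 fold change of -1.04 ± 0.14 (adjusted p = 1.79e-04). VSP2, a storage protein induced by jasmonate, was higher, with 217 and 183 CPM in fha2, against 99.1 and 97.7 CPM in rlt1/2. In the salicylic acid list 1 of 17 tested members was higher and 7 lower, at a median of -0.47. The number lower was 2 without fha2 replicate 2, 4 without rlt1/2 replicate 1 and 4 without rlt1/2 replicate 2. PCC1, a gene controlled by pathogens and the clock, had 7.54 and 4.22 CPM in fha2, against 54.4 and 47.6 CPM in rlt1/2, lower in fha2, with a log2 fold change of -3.12 ± 0.19 (adjusted p = 4.90e-07). PR2, a glucanase of the defence response, had 9.45 and 8.12 CPM in fha2, against 21.9 and 28.2 CPM in rlt1/2, lower in fha2, with a log2 fold change of -1.51 ± 0.21 (adjusted p = 2.08e-04). CBP60G, a calmodulin-binding activator of salicylic acid synthesis, had 6.45 and 5.57 CPM in fha2, against 2.06 and 1.65 CPM in rlt1/2, higher in fha2, with a log2 fold change of 1.69 ± 0.24 (adjusted p = 2.06e-04). PR1, the usual marker of this pathway, had 2.08 and 1.14 CPM in fha2, against 0.438 and 0.563 CPM in rlt1/2, and was not called (adjusted p = 0.115).

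The gibberellin list had 6 of 17 members higher and 2 lower, at a median of 0.03, but only 2 were higher without fha2 replicate 1 or without rlt1/2 replicate 1. The number lower was 0 without rlt1/2 replicate 1 and 1 without any other library. Among all tested genes 20.2% were higher and 20.9% lower. GA20OX1, a synthesis enzyme, had 5.34 and 5.18 CPM in fha2, against 1.53 and 1.86 CPM in rlt1/2, a log2 fold change of 1.63 ± 0.25 (edgeR test, adjusted p = 3.12e-04). GAI, a DELLA repressor, had 48.3 and 46.6 CPM in fha2, against 33.7 and 37.2 CPM in rlt1/2, a log2 fold change of 0.42 ± 0.088 (adjusted p = 0.00255). RGL2, another DELLA gene, had 5.87 and 5.53 CPM in fha2, against 9.20 and 7.71 CPM in rlt1/2, a log2 fold change of -0.57 ± 0.15 (adjusted p = 0.00830), a call lost without fha2 replicate 2 or without rlt1/2 replicate 1. Aliphatic glucosinolate genes were higher in 1 of 12 and lower in 5, at a median of -0.26; the number lower was 2 or 3 without any 1 library. SOT18, a sulfotransferase of the last core step, had 53.3 and 54.3 CPM in fha2, against 105 and 104 CPM in rlt1/2, a log2 fold change of -0.96 ± 0.15 (adjusted p = 4.05e-04). CYP83A1 had 247 and 250.5 CPM in fha2, against 416 and 375 CPM in rlt1/2, a log2 fold change of -0.67 ± 0.15 (adjusted p = 0.00409). MYB29, an activator of these enzymes, was the member higher in fha2, with 29.8 and 23.0 CPM in fha2, against 12.4 and 13.1 CPM in rlt1/2, a log2 fold change of 1.04 ± 0.20 (adjusted p = 0.00156).

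Of 10 tested genes of gynoecium development, which shape the pistil, 3 were higher and 1 lower. The median log2 fold change was 0.10, or -0.17 over 15 members with no filter. Both lists of this paragraph stand beside 20.2% higher and 20.9% lower among all tested genes. The gynoecium counts were near those shares. NGA3, which acts in the style, had 3.84 and 3.42 CPM in fha2, against 14.3 and 9.49 CPM in rlt1/2, lower in fha2, with a log2 fold change of -1.71 ± 0.25 (edgeR test, adjusted p = 2.24e-04). RPL, needed for the replum of the fruit, had 12.3 and 12.6 CPM in fha2, against 6.96 and 7.76 CPM in rlt1/2, a log2 fold change of 0.76 ± 0.14 (adjusted p = 0.00116). ETT, an auxin response factor that patterns the pistil, had 22.7 and 22.0 CPM in fha2, against 15.3 and 16.3 CPM in rlt1/2, a log2 fold change of 0.50 ± 0.097 (adjusted p = 0.00154). The pistil genes CRC, HEC2, HEC3, IND and KNU were removed by the filter, none with over 4 counts in any of the 4 libraries, so a difference in them was not detectable at this depth. Of 10 tested meristem and boundary genes, 4 were higher and 1 lower, at a median of -0.09; 2 were higher without fha2 replicate 2, and none was lower without either rlt1/2 library. CLV1, a receptor kinase that limits the stem cell pool, had 26.6 and 25.5 CPM in fha2, against 11.3 and 13.7 CPM in rlt1/2, a log2 fold change of 1.06 ± 0.13 (adjusted p = 7.54e-05). KNAT6, a homeobox gene of the boundary, had 4.41 and 4.08 CPM in fha2, against 2.15 and 2.17 CPM in rlt1/2, a log2 fold change of 0.98 ± 0.21 (adjusted p = 0.00275). LOB, a boundary gene, had 4.28 and 5.27 CPM in fha2, against 2.32 and 2.69 CPM in rlt1/2, a log2 fold change of 0.93 ± 0.24 (adjusted p = 0.00828), a call lost without fha2 replicate 2 or without rlt1/2 replicate 1.

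Mitotic genes were lower in fha2 in 3 of 14 members and higher in none, at a median of -0.09, and only 1 was lower without fha2 replicate 2. The share of 3 in 14 was close to the 20.9% lower among all tested genes. With overlapping genes removed, none of the 8 mitotic genes left was lower, at a median of 0.20. CDKB2;2, a plant mitotic kinase, had 8.39 and 7.63 CPM in fha2, against 13.6 and 11.4 CPM in rlt1/2, a log2 fold change of -0.64 ± 0.14 (edgeR test, adjusted p = 0.00291). AUR1, an Aurora kinase, had 12.6 and 10.5 CPM in fha2, against 15.66 and 15.705 CPM in rlt1/2, a log2 fold change of -0.44 ± 0.11 (adjusted p = 0.00858), a call lost without fha2 replicate 2. CDKB1;1 had 4.94 and 4.87 CPM in fha2, against 8.06 and 6.15 CPM in rlt1/2, a log2 fold change of -0.53 ± 0.18 (adjusted p = 0.0286); it overlaps AT3G54190, both loci gave 0.13, and the call was lost without either fha2 library or without rlt1/2 replicate 1. Of 13 root genes 1 was higher and 5 lower, at a median of -0.25, with 3 lower without fha2 replicate 2 or without rlt1/2 replicate 1. PYK10, a beta-glucosidase of ER bodies, had 718 and 719 CPM in fha2, against 1329.5 and 1242 CPM in rlt1/2, lower in fha2, with a log2 fold change of -0.84 ± 0.095 (adjusted p = 4.48e-05). LRX1, a cell wall protein of root hairs, had 33.2 and 35.6 CPM in fha2, against 60.3 and 66.5 CPM in rlt1/2, lower in fha2, with a log2 fold change of -0.88 ± 0.15 (adjusted p = 8.42e-04). SCR, a regulator of the endodermis, was the member higher, with 28.3 and 27.9 CPM in fha2, against 16.6 and 19.8 CPM in rlt1/2, a log2 fold change of 0.63 ± 0.11 (adjusted p = 9.00e-04). The root hair genes COBL9, RHD6, EXPA7, EXPA18 and LRX1 summed to 56.0 and 58.1 CPM in fha2, against 96.7 and 103 CPM in rlt1/2, and 3 of those 5 were called lower, with the call of EXPA18 lost without fha2 replicate 1, fha2 replicate 2 or rlt1/2 replicate 1. WOX5, PLT1 and PLT2, markers of the root tip, were below 2 CPM in all 4 libraries and were not called.

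The 10 highest and 10 lowest named genes over the whole table included members of those lists and some that were in none. The 10 highest were BHLH101, BHLH38, BHLH100, RLT2, PORA, MRD1, PDF1.3, SNZ, BHLH39 and MAPKKK6. MRD1, named for its response in a methionine over-accumulating mutant, had 10.6 and 8.09 CPM in fha2, against 0.671 and 1.28 CPM in rlt1/2, a log2 fold change of 3.24 ± 0.27 (edgeR test, adjusted p = 4.70e-06); with AT1G53490, which it overlaps, the value was 1.63. MAPKKK6, a kinase of a MAP kinase cascade, had 5.93 and 6.32 CPM in fha2, against 0.876 and 0.954 CPM in rlt1/2, a log2 fold change of 2.73 ± 0.24 (adjusted p = 6.31e-06), or 0.99 when counted together with AT3G07970. PDF1.3, a defensin, had 0.751 and 6.54 CPM in fha2, against 0.613 and 0.173 CPM in rlt1/2. Its high value rested on fha2 replicate 2, and the call (log2 fold change 3.20 ± 1.06, adjusted p = 0.0290) was lost without that library or without either rlt1/2 library.

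The 10 lowest were CRU3, UKL5, TIP3;1, CRA1, OLEO1, BGLU19, NRPE3B, AP3, SESA3 and SESA1. UKL5, a uridine kinase-like gene, had 0.0441 and 0.0878 CPM in fha2, against 8.45 and 8.36 CPM in rlt1/2, or 3 counts in fha2 against 386 in rlt1/2, a ratio of 127 in favour of rlt1/2 (exact 95% interval 43.3 to 620.4). It overlaps AT3G27430, and both loci gave -0.49. TIP3;1, an aquaporin of seed storage vacuoles, had 0.0446 and 0.0443 CPM in fha2, against 6.10 and 3.33 CPM in rlt1/2, a ratio of 107 in favour of rlt1/2 (exact 95% interval 29.2 to 888), and a log2 fold change of -0.17 together with AT1G73200. BGLU19, a beta-glucosidase, had 0.135 and 0 CPM in fha2, against 5.93 and 4.01 CPM in rlt1/2, and a log2 fold change of -0.79 together with AT3G21360. NRPE3B, a variant of the third subunit of RNA polymerase V, had 0.0909 and 0.176 CPM in fha2, against 6.95 and 7.07 CPM in rlt1/2, lower in fha2, with a log2 fold change of -5.67 ± 0.31 (adjusted p = 3.25e-07). NRPE3B stood between the mutants in Col, at 2.58 and 2.299 CPM in Col. It has a close copy, so reads may be split between the copies. Seed genes thus made up most of the 10 lowest.

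**Figure D5:**
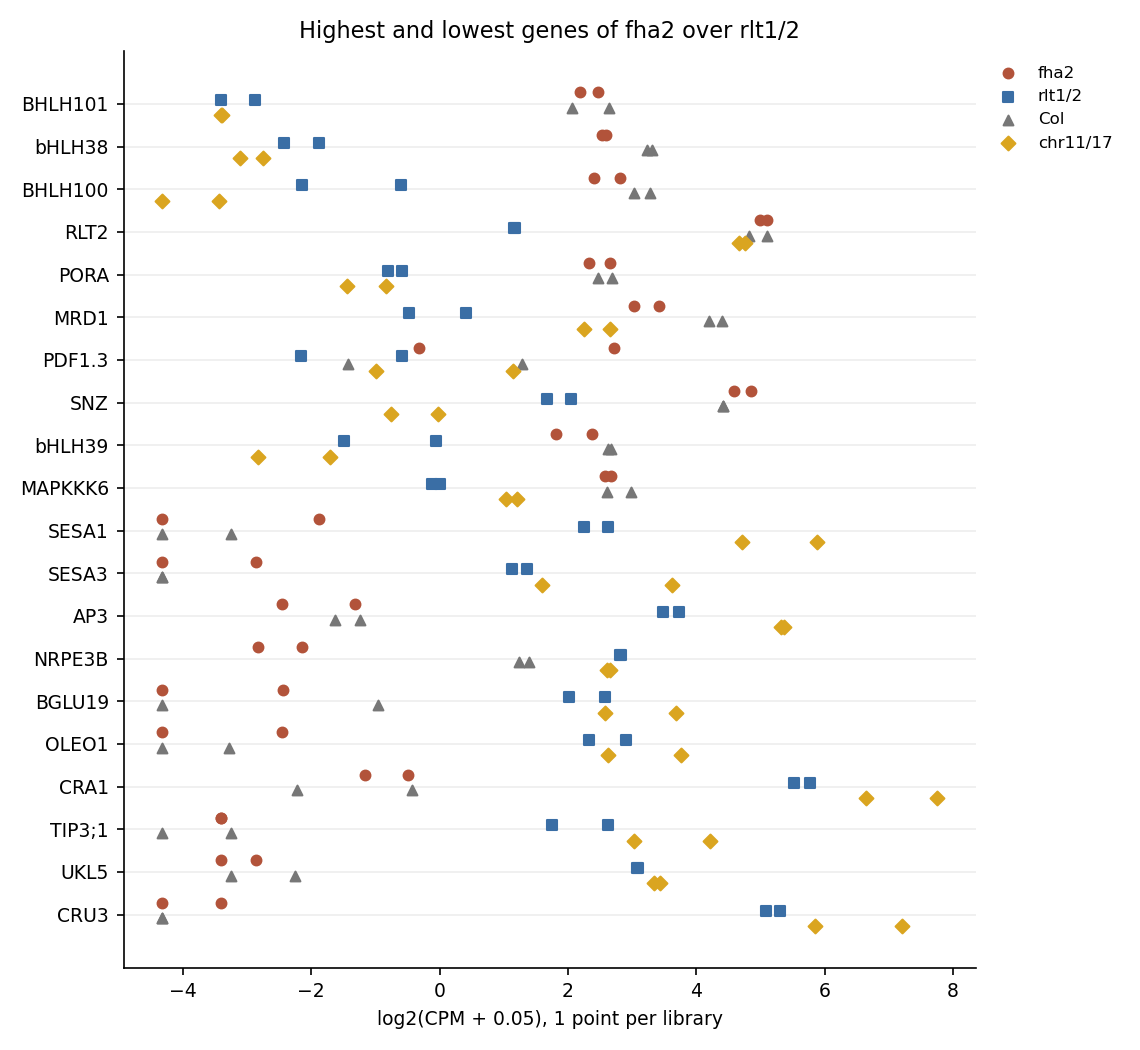
Levels of the 10 highest and the 10 lowest named genes, as log2(CPM + 0.05) with 1 point per library for fha2, rlt1/2, Col and chr11/17. The fha2 and rlt1/2 points do not overlap for any of the 20 genes, which the rule for naming them required, and the smallest gap is that of PDF1.3.

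Among tested genes, 86 had no count in either fha2 library, and 40 of these were called lower, with 6 to 84 counts over both rlt1/2 libraries. Genes with no count in either rlt1/2 library numbered 28, and 7 of these were called higher in fha2. Such genes entered the test through the counts of another genotype. No gene was at 0 in both fha2 libraries and at 2 CPM or more in rlt1/2. The reverse was found for 2 loci without a symbol, which were picked out after their values were seen. AT3G22142 had 203 and 228 counts in fha2, against 0 and 0 in rlt1/2, at least 145-fold higher with 3 counts over the genotype as the floor. It overlaps AT3G22125, and both loci together gave 1.38 on the log2 scale. AT2G05250 had 320 and 0 counts in fha2, against 0 and 0 in rlt1/2, so its value rests on 1 library, and its call was lost without that library, without either rlt1/2 library, in DESeq2 and limma-voom and with the length offset. It has a close copy, AT2G05230, between which reads may be split.

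Families that share the letters of their symbol were counted too, and 209 had at least 8 tested members. Only the 6 with the largest share each way are given, so their shares are high by that choice. Among all tested genes 20.2% were higher and 20.9% lower. The largest shares higher in fha2 were in PTAC, 10 of 14 genes of the plastid transcription complex, and HCF, 8 of 12 genes for building the photosynthetic complexes. Next came FRO with 5 of 8, a stem that mixes ferric reductases with an unrelated gene, then ARF with 9 of 15 auxin response factors, TCP with 9 of 15 growth regulators and NF-YA with 6 of 10. Their median log2 fold changes were between 0.33 and 0.57. The largest shares lower were in LSM with 7 of 8, MSRB with 7 of 9 methionine sulfoxide reductases, SDH with 10 of 13, GSTF with 9 of 12, TOM with 9 of 14 and GSTU with 15 of 25. GSTF and GSTU are glutathione S-transferases, and the stem TOM includes genes for protein import into mitochondria. As with FRO, a shared stem can also join unrelated genes. The LSM genes encode small RNA-binding proteins with a median exon length of 804 bases, and with the length offset 1 was higher and none lower. With the offset TOM had 3 lower, GSTF 6 and GSTU 10. MSRB had 7 lower with the offset as well, and its median was -1.08 without it. Members of a family can be close copies that share reads.

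The share of genes called near the mutated loci was close to the background or below it. Among the 40 nearest tested genes, 27.5% were called around FHA2, 45.0% around RLT1 and 42.5% around RLT2, beside 41.1% of all tested genes. By chromosome, between 19.5% and 21.2% of genes were higher in fha2 and between 19.7% and 22.3% were lower.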

How the data were processed

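The authors deposited expected counts per gene for each library. The submitters' processing notes name Bowtie2, RSEM, DESeq2 and TAIR10 without saying what each did. No source used here says if strand was used, so genes that overlap another (25.4% of 25198) may share reads. The authors also deposited FPKM values, so taken from their range, and a table with log2 fold changes, p-values and q-values against Col; none of these was used for a result. Gene names came from the RefSeq annotation of TAIR10.1, which matched all 25198 IDs and also named 22 genes whose symbol had become a date. No coordinates or sequences are printed, because that assembly and TAIR10 differ in name.

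Expected counts were rounded. filterByExpr by genotype left 20866 genes, TMM factors scaled the libraries, and edgeR 4.0.16 (R 4.3.3) fitted genotype over all 8 libraries and tested fha2 minus rlt1/2. The test was checked on simulated data. At these depths 3 counts stand for 0.136 to 0.139 CPM in the 4 libraries. Genes with 1 to 3 counts in a genotype are given as a ratio of counts with an exact 95% interval. Alternatives were other scalings and filters, DESeq2 1.42.0, limma-voom 3.58.1, the 4 libraries alone, a replicate block, each library left out, the removal of overlapping genes and, after seeing the data, a length offset (lowess, span 0.3), counts of both overlapping loci added, and the product groups. Same-numbered libraries did not deviate together. The text names the mutated genes and the ISWI list, FT, SOC1, FLC, FUL and AP1, the 10 largest called changes each way (genes with a symbol whose higher genotype averages 2 CPM or more and whose libraries do not overlap), and up to 3 called members per list with the smallest adjusted p. Other list members are named as examples. Members and lists were chosen with earlier results of these data known.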

Additional observations from a re-analysis of the deposited data

How the results depend on the processing

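The numbers of genes higher and lower in fha2 stayed within 1.5 times of 4221 and 4361 under RLE size factors, total counts, no filter, a minimum of 1 CPM in 2 libraries, DESeq2, limma-voom, the 4 libraries alone, the length offset and the removal of overlapping genes. DESeq2 called 3081 and 3665, total counts gave 3585 and 4580, and the 4 libraries alone gave 4853 and 4956. With the replicate block the counts were 4092 and 4295; same-numbered libraries had deviations from their genotype means that correlated at r = 0.032 across genes, so the numbers were not taken to pair the libraries. Leaving out 1 library at a time gave between 2352 and 3231 genes higher and between 2656 and 3492 lower. Each such fit keeps 1 library in a genotype, assumed to vary like the other groups. Counts of at least 2-fold differences lay between 524 and 792 higher and between 876 and 1185 lower in those fits, beside 739 and 1189. Of 1161 values of named genes under another setting, 1121 had the same direction and the same side of the threshold, 34 were no longer called, 4 were newly called and 2 changed sign. Both changes of sign were in AT4G12750, which was not called, at -0.06 with the length offset and between -0.00 and 0.28 when 1 library was left out. Removing overlapping genes also removed list members. This left 3 tested members of chlorophyll synthesis, all 3 higher, and 9 of cold and abscisic acid, with 5 higher. It also left 8 mitotic genes, with none lower. Of the 78 called genes that the naming rule picked, 9 lost the call without 1 library: CHR17, PTM, MSI1, PDF1.3, GI, LOB, RGL2, AUR1 and CDKB1;1. Among these, 4 also lost it elsewhere: PTM and CDKB1;1 in DESeq2 and with the length offset, PDF1.3 in DESeq2 and limma-voom, and MSI1 with total counts, no filter, DESeq2 and the replicate block. List members named as examples are not in that count, and of these MYB111 also lost its call with the replicate block. With 2 libraries per genotype, a difference near the spread of a gene was not detectable at this depth.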

Other observations

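Products were also grouped by the words of their annotation, after the values had been seen, as a description of gene groups outside the lists. In the peroxidase superfamily 37 of 59 tested genes were lower in fha2 and 2 higher, with a median log2 fold change of -0.76, and 34 were lower with the length offset. Peroxidases oxidise many substrates at the cell wall with hydrogen peroxide. Of 51 glutathione S-transferases, detoxifying enzymes that include the GSTF and GSTU genes above, 31 were lower and 3 higher, at a median of -0.54, with 22 lower under the offset. Proteasome genes were lower in 20 of 44, at a small median of -0.20, and 18 under the offset. Late embryogenesis abundant genes were lower in 28 of 68, at a median of -0.39. These shares stand beside 20.9% of all tested genes lower.

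Groups of short genes depended on the offset. Of 36 small nuclear ribonucleoprotein genes, which act in splicing, 24 were lower without the offset and 5 with it. Among 323 ribosomal protein genes 144 were lower and 24 higher without the offset, but 48 were lower and 47 higher with it. Histone genes were lower in 18 of 31 and in 7 with the offset. Fatty acid genes, among them the desaturases FAD2, FAD3 and FAD7, were higher in 16 of 26, at a median of 0.40, and in 13 with the offset. NPH3 family genes, named for a partner of the blue-light receptor phototropin, were higher in 15 of 30 with none lower, and IQ-domain genes in 14 of 32 with none lower. Pentatricopeptide repeat genes, which act on organelle RNA, were higher in 39 of 216, or 18.1%, close to the 20.2% of all tested genes. With the length offset 22 of them were higher, where 17.9% of all tested genes were higher. Fewer were lower, 10 or 4.63%, beside 20.9% of all tested genes.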
